A study of Mus musculus with 6 samples.

Results

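The heat shock proteins and the J-domain chaperones were followed as 1 gene family set in sorted mouse hair follicle cells after a chemical carcinogen. The set was chosen by name: genes whose symbols start with Hspa, Hspb, Hspd, Hspe, Hsph, Hsp90, Dnaja, Dnajb or Dnajc, together with the transcription factors Hsf1 and Hsf2. The rule itself uses no measured difference between the groups, but the set was chosen with earlier results of these data known. On the arrays, 103 probes of 74 such genes had a name, and 98 probes of 71 genes were well above the scanner's background on at least 3 of the 6 arrays. They are 98 of the 44955 probes, and 71 of the 17848 named genes, that passed the same filter in the whole series. Of the 98, 94 were above background on all 6 arrays. Hspa12a, Dnajb7 and Dnajc28 had no probe that passed. No probe was matched to Hspa1b, so that gene was not measured by name.

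Epidermis of male mice was the source of the cells. Their hair had been removed by depilation, and the skin then received either acetone, the vehicle, or DMBA, a polycyclic aromatic hydrocarbon used to start skin tumours in mice. At day 3, cells with a high signal of the K15-EGFP reporter, high ITGA6 (integrin alpha 6) and no Sca1 were sorted, which the labels call HFSCs/HG, for stem cells of the hair follicle and its hair germ. The reporter marks cells by the activity of the keratin 15 promoter. All 6 samples were depilated, carried the reporter and were sorted through the same gate. Each group held 3 samples, from different mice per the series description. Dose, strain and age are not given in the sources used here. The comparison asks which genes differed in level in these cells at that time.

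Chaperones bind unfolded proteins and help them to fold, to cross membranes, to join complexes or to be degraded. HSP70 proteins do this in a cycle driven by ATP: a J-domain protein (DNAJ) brings the client and triggers ATP hydrolysis, and a nucleotide exchange factor, such as an HSP110 protein, then releases it. HSP90 matures kinases and steroid receptors, small HSPs hold unfolding proteins without using ATP, and the chaperonin of HSPD1 and HSPE1 folds proteins inside mitochondria. HSF1 switches on many of these genes when unfolded proteins accumulate, by binding heat shock elements, which are short inverted repeats of GAA and TTC units near the gene start.

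Promoter sequence is shown for 5 members, because they span the range from several matches to such elements to none. Each is the 250 bases before the gene start in the RefSeq promoter table (build GRCm38.p6), written 5′ to 3′ on the gene's strand, with matches to a pair of inverted units (GAANNTTC or TTCNNGAA, both strands) in capitals. The windows lie at chr1:55087898-55088147 on the plus strand for Hspe1, chr5:29735648-29735897 on the plus strand for Dnajb6, chr5:135887669-135887918 on the plus strand for Hspb1, chr17:34972157-34972406 on the minus strand for Hspa1a and chr3:40745363-40745612 on the plus strand for Hspa4l. These positions come from the table; the arrays' own annotation uses build mm9, from which no position is printed.
Hspe1: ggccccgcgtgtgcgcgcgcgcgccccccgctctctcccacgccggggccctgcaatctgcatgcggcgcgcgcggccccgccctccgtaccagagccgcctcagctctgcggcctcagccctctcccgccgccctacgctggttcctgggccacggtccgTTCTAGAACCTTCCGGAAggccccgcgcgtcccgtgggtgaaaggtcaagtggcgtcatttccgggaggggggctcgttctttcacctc
Dnajb6: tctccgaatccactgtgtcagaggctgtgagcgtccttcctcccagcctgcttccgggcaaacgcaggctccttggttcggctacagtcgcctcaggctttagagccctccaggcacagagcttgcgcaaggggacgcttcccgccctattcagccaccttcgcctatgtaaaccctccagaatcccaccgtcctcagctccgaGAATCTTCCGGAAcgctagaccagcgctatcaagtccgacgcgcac
Hspb1: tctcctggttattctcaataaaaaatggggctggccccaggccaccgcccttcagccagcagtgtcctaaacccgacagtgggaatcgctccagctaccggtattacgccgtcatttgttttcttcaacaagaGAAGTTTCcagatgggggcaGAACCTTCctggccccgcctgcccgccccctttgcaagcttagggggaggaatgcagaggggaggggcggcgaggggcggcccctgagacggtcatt
Hspa1a: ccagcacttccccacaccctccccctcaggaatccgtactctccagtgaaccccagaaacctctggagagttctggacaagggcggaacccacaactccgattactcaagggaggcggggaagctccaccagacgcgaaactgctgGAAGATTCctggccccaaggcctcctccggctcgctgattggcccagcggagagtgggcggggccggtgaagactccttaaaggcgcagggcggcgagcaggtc
Hspa4l: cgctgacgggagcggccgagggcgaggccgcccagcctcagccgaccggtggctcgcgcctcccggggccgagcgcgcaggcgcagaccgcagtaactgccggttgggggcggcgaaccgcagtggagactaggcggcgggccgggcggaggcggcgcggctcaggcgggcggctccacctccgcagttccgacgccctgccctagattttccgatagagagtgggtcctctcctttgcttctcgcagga

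Hspe1 held 3 overlapping matches, starting 89, 84 and 79 bases before its start, which together form an uninterrupted run of alternating units. Its promoter is also that of Hspd1, which is transcribed from the other strand: the table's windows of the 2 genes share 285 of 300 bases. Dnajb6 held 2 overlapping matches, 46 and 41 bases before its first listed start. Hspb1 held 2 separate ones at 117 and 97 bases, and Hspa1a held 1 at 104 bases. Hspa4l held none in this window. The table had a promoter for 56 of the 71 genes. A pair of inverted units was found in 15 of them (26.8%), against 17.0% of the 27025 genes in the table, and 3 alternating units in 4 of them (Dnajb6, Hspd1, Hspe1 and Hsph1; 7.14%) against 0.662%. Windows in these shares are the table's 300 bases, 250 before and 50 after the start. A match is a run of letters, not a site shown to be bound.

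Levels are log2 intensities minus the log2 of the array's own 75th percentile, so 0 is the 75th percentile and 1 unit is a 2-fold difference. A difference is the DMBA mean minus the vehicle mean on that scale. Each probe has its own brightness, so levels were not compared between genes. The gate was checked with 12 genes of the sorted cells, among them Krt15, Itga6, Cd34, Lhx2 and Lgr5. All 12 were above background on all 6 arrays, and their summed linear level ran from 358.3 to 431.1 times the 75th percentile on the vehicle arrays and from 376 to 551.7 on the DMBA arrays. That sum is made up mostly of the bright keratin probes. Of the 12 genes 6 were higher and 6 lower. Lgr5 and Sox9 lay wholly below after DMBA, by -0.64 (SE 0.22) and -0.50 (SE 0.25), and Lgr6 wholly above, by 0.85 (SE 0.48); their part in the chaperone values was not tested. The share of probes above background ran from 77.0% to 83.6% on the vehicle arrays and from 69.3% to 80.9% on the DMBA arrays. Vehicle 1 was alone on its slide and scan, and the other 5 arrays shared the second slide, so that slide cannot be told apart from that sample.

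After DMBA, no chaperone gene passed the test for a difference. With limma and Benjamini-Hochberg adjustment over all 44955 probes, 0 of the 98 chaperone probes had an adjusted p under 0.05. The smallest adjusted p among them was 0.96, at Dnajc17. The test called 0% of all probes, and the smallest adjusted p anywhere was 0.114. Of the chaperone probes 44 had a higher DMBA mean and 54 a lower one; their median difference was -0.02, while the median of all probes was 0.01. Counted once per gene by the brightest probe, 32 genes were higher and 39 lower, again with a median of -0.02. In RNA from a whole sorted sample, a change in level per cell and a change in which cells were collected cannot be told apart.

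At the looser mark of an unadjusted limma p under 0.05, 0 chaperone probes were higher after DMBA, where 2.68% of all probes were. By that mark 4 were lower, 4.08% of the members against 2.22% of all probes: Hsf1, Hspa4l, Dnajc2 and Dnajc17. These counts depended on single arrays. The lower count was 2 without vehicle 1, 0 without vehicle 2, 1 without vehicle 3 and 2 without DMBA 3, and it was 3 without DMBA 1 and 5 without DMBA 2. In the same fits 4.03% of all probes were lower without DMBA 1, and 2.05% to 2.2% without each of the other 5 arrays. The higher count was 2 without vehicle 1 (Dnajb9 and Hspa2), 1 without vehicle 3 (Dnajc14) and 2 without DMBA 3 (Dnajc11 and Hspb2), where the share of all probes ran from 2.44% to 3.01% over the 6 fits. By a cruder measure, the 3 DMBA arrays lay wholly above the 3 vehicle arrays for 3 chaperone probes (3.06%, against 4.79% of all probes), those of Hspb1, Hspb6 and Hspbap1. They lay wholly below for 7 probes of 6 genes (7.14%, against 4.25%): Hsf1, Hspa4, Hsp90b1, Dnajc2, Dnajc17 and both probes of Dnajc24.

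**Figure D1:**
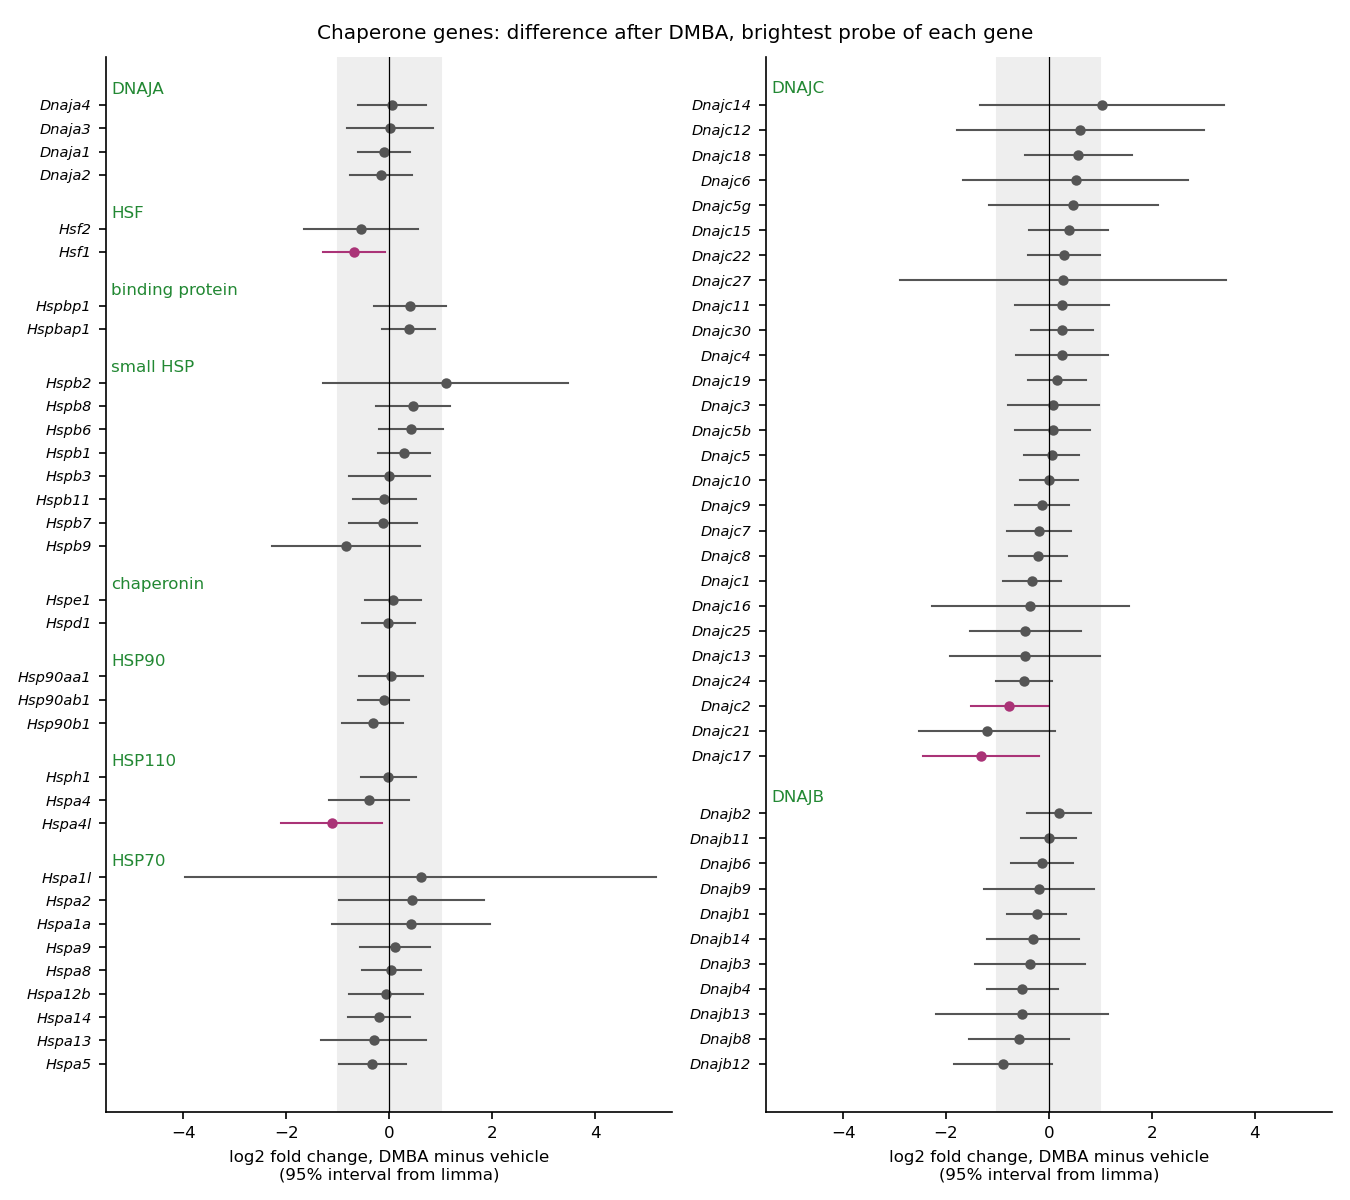
Difference in level after DMBA for the 71 chaperone genes, by family, on the x axis (log2, DMBA minus vehicle), with points for the brightest probe of each gene and lines for limma's 95% interval from 3 and 3 arrays. The grey band marks differences under 2-fold, and the 4 coloured genes (Hsf1, Hspa4l, Dnajc2 and Dnajc17) had an unadjusted p under 0.05, all with lower values after DMBA.

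The heat shock factors come first, since they act upstream of the rest. Hsf1, the main activator of heat-inducible chaperone genes, was at 0.49, 0.80 and 1.01 on the vehicle arrays and at -0.03, 0.00 and 0.27 on the DMBA arrays. All 3 DMBA values lay below all 3 vehicle values. The difference was -0.68 (SE 0.24), a 1.61-fold lower mean, with an unadjusted p of 0.031 and an adjusted p of 0.97 by limma. Hsf2, a related factor active in development and differentiation, was at -0.31, -1.07 and -0.02 with vehicle and at -1.43, -1.38 and -0.22 with DMBA. Its groups overlapped, and its difference of -0.54 (SE 0.45) did not pass either mark. The Hsf1 difference kept its sign under all 18 other settings tried and had an unadjusted p under 0.05 in 14 of them. It lost that mark without vehicle 2, vehicle 3, DMBA 1 or DMBA 2. Of the 18 settings, those of filter, probe choice, moderation and replicate block cannot change the difference. The slide block repeats the fit without vehicle 1.

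Among the HSP70 proteins, which bind short stretches of unfolded chains, 6 of 12 probes were higher and 6 lower, with a median difference of 0.02, which turned negative under quantile, median and normexp scaling. Hspa8, the abundant constitutive HSP70 of the cytosol, had 3 probes with differences of 0.04, 0.14 and -0.01. On its brightest probe the values were 5.56, 5.59 and 5.85 with vehicle and 5.96, 5.52 and 5.64 with DMBA, and the groups overlapped. The 95% interval of that difference, -0.53 to 0.62, lies inside a 2-fold change in either direction. Hspa5 (BiP), the HSP70 of the endoplasmic reticulum, stood at 4.18, 3.60 and 3.99 against 3.31, 3.69 and 3.78, a difference of -0.33 (SE 0.27). Hspa9 (mortalin), the mitochondrial HSP70, differed by 0.11 (SE 0.28). Both had overlapping groups.

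Hspa1a, Hspa1l and Hspa2 varied more between arrays than between groups. Hspa1a, the classic heat-inducible HSP70, was at -0.20, 1.89 and 1.77 with vehicle and at 1.99, 1.77 and 0.98 with DMBA. Vehicle 1 was the low array, and the other 5 lay within about 1 unit. The difference was 0.43 (SE 0.63), and without vehicle 1 it was -0.25. Hspa1b encodes a nearly identical protein, so the Hspa1a probe may read both. Hspa1l, a close relative known mainly from testis, was at -4.50, -3.97 and 0.73 with vehicle and at 0.72, -4.84 and -1.77 with DMBA, a span of 5.57 over the 6 arrays, the widest of the set. Vehicle 3 and DMBA 1 were high there, and no group difference can be read from it. Hspa2, another testis HSP70 that is also present in epidermis, was at 2.08, 0.31 and 0.22 against 0.72, 1.67 and 1.53, where vehicle 1 was the highest array. Its difference was 0.44 (SE 0.58). The remaining genes, Hspa12b, Hspa13 and Hspa14, had differences from -0.30 to -0.06.

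HSP110 proteins release nucleotide from HSP70. Hyou1, a relative whose symbol the name rule does not take in, was slightly higher, by 0.10 (SE 0.33), with overlapping groups. The HSP110 genes within the name rule were lower on all 6 probes of 3 genes, with a median of -0.37. They were lower on all 6 under each of the 5 other scalings tried. Without DMBA 1 they were lower on 5 of 6, and the median was -0.27. Hspa4l (APG-1) was at -1.88, -2.09 and -2.65 with vehicle and at -3.81, -2.59 and -3.57 with DMBA. Vehicle 3 and DMBA 2 overlapped by a narrow margin. The difference was -1.12 (SE 0.41), a 2.17-fold lower mean, with an unadjusted p of 0.032 and an adjusted p of 0.98 by limma. It lost the unadjusted mark without vehicle 1, vehicle 2, DMBA 1 or DMBA 3. Hspa4 (APG-2) had 3 probes with differences of -0.40, -0.34 and -0.79. On the second of these, the values were 3.06, 2.91 and 2.86 with vehicle and 2.54, 2.64 and 2.65 with DMBA, without overlap. Hsph1, the heat-inducible member, stood on its brightest probe at 4.04, 4.08 and 4.09 against 3.86, 4.06 and 4.25, a difference of -0.01 with an interval from -0.55 to 0.52. Its second probe differed by -0.27 (SE 0.23).

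The HSP90 genes differed little. Hsp90ab1, the constitutive cytosolic form, was at 6.52, 6.40 and 6.53 with vehicle and at 6.45, 6.34 and 6.36 with DMBA. That difference of -0.10 had an interval from -0.60 to 0.39. Hsp90aa1, the inducible cytosolic form, stood at 3.43, 3.21 and 3.37 against 3.00, 3.53 and 3.58, with overlapping groups and a difference of 0.03 (SE 0.25). Its sign turned under median scaling. Hsp90b1 (GRP94), the form of the endoplasmic reticulum, was at 4.58, 4.43 and 4.72 with vehicle and at 3.97, 4.40 and 4.41 with DMBA. Those groups did not overlap, DMBA 1 being the lowest, and the difference was -0.32 (SE 0.24).

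The mitochondrial chaperonin was nearly level. Hspd1 (HSP60) was at 3.60, 3.30 and 3.46 with vehicle and at 3.43, 3.39 and 3.49 with DMBA, a difference of -0.02 with an interval from -0.53 to 0.50. Hspe1 (HSP10), its lid, had 3 probes with differences of 0.08, 0.06 and 0.05, and all 3 intervals lay inside a 2-fold change. On the brightest, the values were 4.86, 4.54 and 4.86 against 4.95, 4.75 and 4.79. For the 2 genes whose shared promoter holds the run of matches printed above, the differences had standard errors of 0.21 and 0.22.

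Of the small heat shock proteins, 4 were higher, 3 were lower and Hspb3 was at 0.00, with a median of 0.14 over the 8 genes, which ran from 0.08 without DMBA 2 to 0.28 without DMBA 3. Hspb1 (HSP25, HSP27 in human), an actin-binding holdase abundant in keratinocytes, was at 3.23, 3.26 and 3.32 with vehicle and at 3.71, 3.51 and 3.46 with DMBA. All 3 DMBA arrays were above, DMBA 1 the most. The difference was 0.29 (SE 0.21), a small one, and its unadjusted p by limma was 0.22. Hspb8 (HSP22), which works with Bag3 in autophagy of misfolded proteins, stood at 2.23, 2.76 and 3.04 against 3.35, 3.13 and 2.93. The difference was 0.46 (SE 0.29), and vehicle 3 overlapped with the DMBA arrays. Hspb6 (HSP20) lay at -0.41, -0.02 and -0.29 with vehicle and at 0.09, 0.48 and -0.02 with DMBA, the groups meeting at -0.02. Its difference was 0.42 (SE 0.25). Hspb9, a testis gene, was lower by -0.83 (SE 0.59), where vehicle 1 at -0.54 was high. The other vehicle arrays were at -2.20 and -2.77, and the DMBA arrays ran from -2.85 to -2.35. Hspb2 had a vehicle mean of -2.62 and a DMBA mean of -1.52 (SE of the difference 0.98), with DMBA 2 alone at 0.47 and the other 5 arrays between -3.38 and -1.65.

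The 2 binding proteins that the name rule also takes in were higher. Hspbp1, a nucleotide exchange factor of HSP70, was at 0.10, 0.57 and 0.97 with vehicle and at 1.03, 0.93 and 0.89 with DMBA, a difference of 0.41 (SE 0.29). Hspbap1, a protein that associates with HSPB1, stood at -1.67, -1.83 and -1.94 against -1.55, -1.36 and -1.39, without overlap, and differed by 0.38 (SE 0.21).

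**Figure D2:**
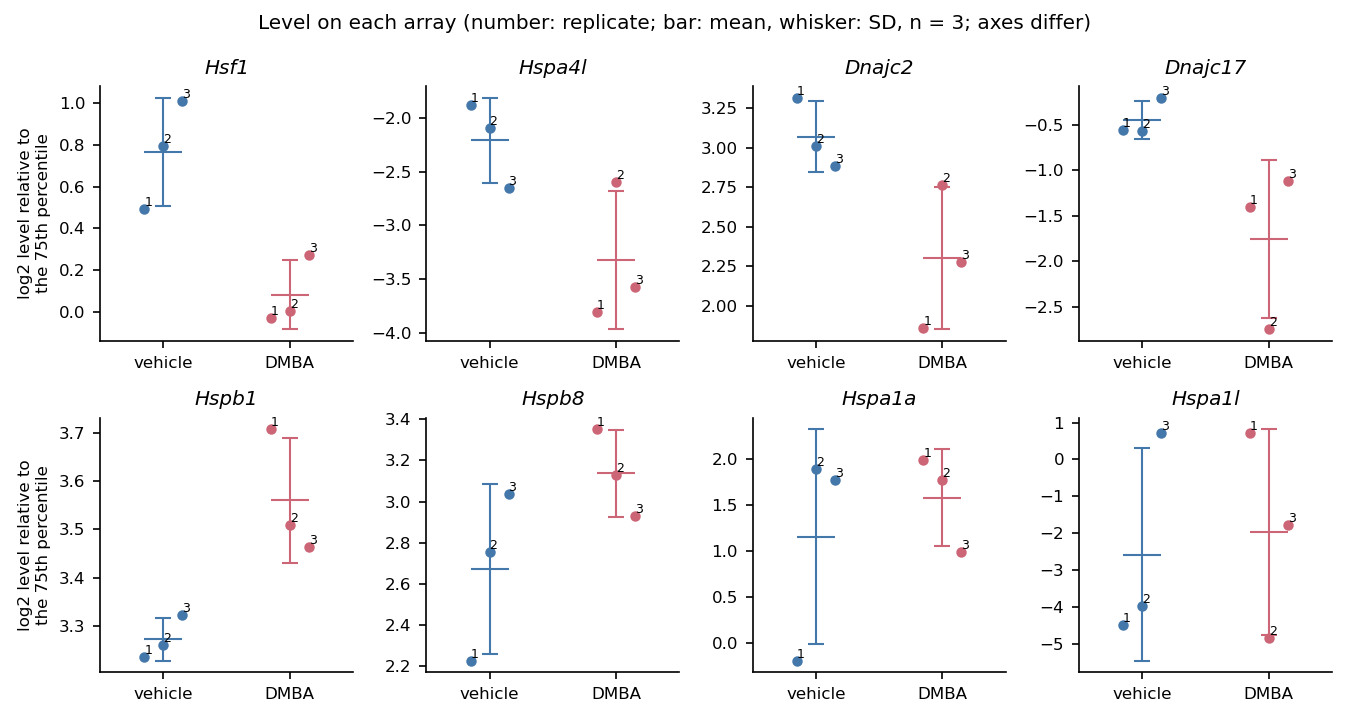
Level of 8 genes on each array (y axis, log2 relative to the array's 75th percentile; axes differ between genes), with bars for the group mean and whiskers for the SD of 3 arrays. Hsf1, Dnajc2 and Dnajc17 lie lower on all DMBA arrays, Hspb1 lies higher, and Hspa1a and Hspa1l differ more within a group than between groups.

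J-domain proteins choose the clients and the place of work of HSP70. Of their 61 probes (42 genes), 28 were higher and 33 lower. The DNAJA class, whose members resemble bacterial DnaJ, had differences from -0.57 to 0.13 on 7 probes, with no gene near either mark. Dnaja1, a cytosolic partner of HSPA8, was at 3.56, 3.39 and 3.66 with vehicle and at 3.37, 3.46 and 3.49 with DMBA, a difference of -0.10 (SE 0.21). A second, dimmer Dnaja1 probe spread from -4.78 to -1.25 and gives no direction. Dnaja2 differed by -0.16 and -0.19 on its 2 probes, and Dnaja3 (TID1), the mitochondrial member, by 0.02. Dnaja4 differed by 0.06 on its brightest probe and by -0.57 on the other.

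The DNAJB class was lower on 12 of 16 probes, with a median of -0.27, and was lower on 11 or 12 under each of the 5 other scalings. Its size depended on single arrays: the median was -0.14 without vehicle 1, -0.10 without vehicle 2 (10 of 16 lower), -0.15 without vehicle 3, -0.17 without DMBA 1 and -0.15 without DMBA 2. No DNAJB probe had an unadjusted p under 0.05. Dnajb1 (HSP40), the heat-inducible partner of HSPA1A and HSPA8, was at 5.42, 5.42 and 5.71 with vehicle and at 5.52, 5.10 and 5.22 with DMBA. The groups overlapped through DMBA 1, and the difference was -0.24 (SE 0.24). Dnajb4, a close relative, stood at 1.87, 1.95 and 2.12 against 1.88, 1.04 and 1.47, a difference of -0.52 (SE 0.29). Again DMBA 1 was within the vehicle range, and DMBA 2 was lowest. Dnajb12, which serves membrane proteins of the endoplasmic reticulum, was at -2.25, -1.50 and -1.47 with vehicle and at -2.49, -2.15 and -3.26 with DMBA. Vehicle 1 overlapped with the DMBA arrays, and the difference was -0.90 (SE 0.39; unadjusted p 0.060 by limma).

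Probes of the same DNAJB gene did not always follow each other. Dnajb6, a strong suppressor of protein aggregation, had 4 probes. The 2 probes of one RefSeq transcript, with differences of -0.42 and -0.37, were highest on vehicle 1, at 3.21 and 2.71. Another transcript's 2 probes differed by -0.14 and 0.08, and on the second of these vehicle 1 was the lowest array, at 1.86; without it, that difference was negative. Dnajb9 (ERdj4), which is induced by unfolded proteins in the endoplasmic reticulum, differed by -0.19 (SE 0.44) on one probe and by 0.60 (SE 0.55) on the other. Vehicle 1 was low on the first, at -1.70, and high on the second, at -0.86. Dnajb8 differed by -0.58 (SE 0.40), with vehicle 3 alone high at -0.61.

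The DNAJC class, which is varied and often tied to one site in the cell, was higher on 21 of 38 probes, with a median of 0.07, which was 0.00 under median scaling. Without DMBA 3 it was -0.06. The members at an unadjusted p under 0.05 belong to the ribosome and the nucleus. Dnajc2 (zuotin, MPP11), which sits at the exit of the ribosome with an HSP70 partner, was at 3.32, 3.01 and 2.88 with vehicle and at 1.86, 2.76 and 2.28 with DMBA. The DMBA arrays were all lower, DMBA 2 by a narrow margin. The difference was -0.77 (SE 0.31), a 1.70-fold lower mean with an unadjusted p of 0.046 by limma. It lost that mark when any array but DMBA 2 was left out. Dnajc17, a nuclear protein linked to splicing, was at -0.55, -0.57 and -0.20 with vehicle and at -1.40, -2.75 and -1.11 with DMBA. No array overlapped, and DMBA 2 was far below. Its difference of -1.31 (SE 0.46), a 2.48-fold lower mean, had an unadjusted p of 0.029 and an adjusted p of 0.96. Without any 1 of the 3 vehicle arrays it lost the unadjusted mark.

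Both probes of Dnajc24 (DPH4), a J-domain protein needed to make diphthamide on elongation factor eEF2, separated the groups. On the brighter, the values were 3.18, 3.50 and 3.39 with vehicle and 2.99, 2.95 and 2.69 with DMBA. The differences of -0.48 (SE 0.22) and -0.52 (SE 0.23) had unadjusted p-values of 0.076 and 0.066 by limma. Those probes were below 0.05 under quantile, median and normexp scaling and with trended, robust moderation. Dnajc21, a factor in the maturation of the large ribosomal subunit, stood at 0.61, -0.25 and 0.60 against -1.94, -0.03 and -0.70. The difference was -1.21 (SE 0.54), with DMBA 1 the lowest array, and without DMBA 1 it was -0.68. Its second probe differed by -0.43 (SE 0.59). At the other end, Dnajc14 had differences of 1.03 (SE 0.98) and 1.26 (SE 1.33) on 2 dim probes, and on the second vehicle 2 alone was very low, at -8.03. A dim probe of Dnajc11, a protein of the mitochondrial outer membrane, differed by 1.22 (SE 0.66) and the brighter one by 0.26. Dnajc3 (P58IPK), an inhibitor of the kinase PERK in the stress response of the endoplasmic reticulum, differed by 0.09 (SE 0.37).

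Grouped by place in the cell, with the brightest probe of each gene, the members leaned in different directions, although no group was tested. The 5 J-domain proteins of ribosome, spliceosome and nucleus (Dnajc2, Dnajc8, Dnajc9, Dnajc17 and Dnajc21) were all lower, with a median of -0.77, and they were all lower under every one of the 18 other settings tried, with medians from -0.95 to -0.55. The settings of filter, probe choice, moderation and replicate block cannot change these differences, and the median stayed at -0.77 there. All settings reuse the same arrays and are no independent support. The group holds Dnajc2 and Dnajc17, the DNAJC genes at an unadjusted p under 0.05, so its median follows in part from their values. Among the 5, the smallest differences were those of Dnajc8, at -0.21, and Dnajc9, at -0.14. In the endoplasmic reticulum 8 of 10 genes were lower, with a median of -0.31, among them Hspa5, Hsp90b1, Dnajb12 and Dnajc1 (-0.32). Without DMBA 1, 6 of those 10 were lower, and the median was -0.16. Of the 8 mitochondrial genes 7 were higher, by little, with a median of 0.14 and a range from -0.02 (Hspd1) to 0.39 (Dnajc15). Without DMBA 1 that median was 0.07, and without vehicle 2 only 5 of the 8 were higher. A list of 10 cytosolic genes read as heat-inducible held Hspa1a, Hspa4l, Hspa8, Hsp90aa1, Hspb1, Hspb8, Hsph1, Dnaja1, Dnajb1 and Dnajb4. Hspa8, described above as constitutive, is thus among them and counts as higher, by 0.04. The list divided evenly, 5 higher and 5 lower, with a median of 0.01, which ran from -0.06 to 0.02 under the other scalings. Among the 5 J-domain proteins of vesicles and endosomes, such as Dnajc5 (cysteine string protein) and Dnajc6 (auxilin), 4 were higher, with a median of 0.07. It turned to -0.24 without vehicle 3 and to -0.05 without DMBA 1, with 2 of 5 higher in both. For comparison, the median over all genes by the same rule was -0.01, with 8700 higher and 9145 lower.

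**Figure D3:**
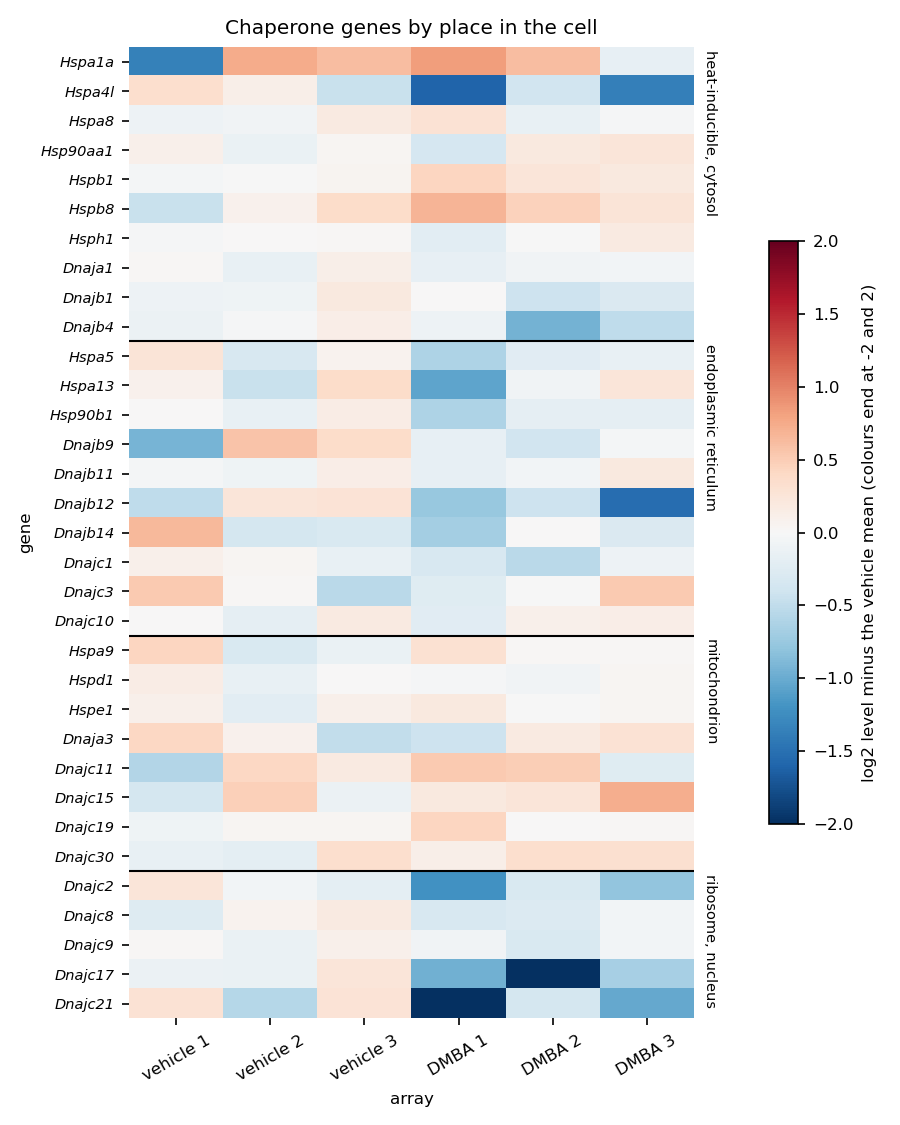
Level of 33 chaperone genes on each array minus the gene's vehicle mean (colour, log2; red higher, blue lower), by place in the cell. The 5 genes of ribosome and nucleus are lower on most DMBA arrays, with the darkest cells at Dnajc21 on DMBA 1 and Dnajc17 on DMBA 2, while the mitochondrial rows stay pale.

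Members with and without a match to the heat shock element were set side by side, without a test. The 15 members with a pair of inverted units in the promoter window had a median difference of 0.06, and 9 were higher and 6 lower. The 41 members without one had a median of -0.20, with 12 higher and 29 lower. None of the 15 (0) had an unadjusted p under 0.05, a mark reached by 2.55% of all genes with higher and 2.36% with lower values when counted by brightest probe, and their differences ran from -0.52 at Dnajb4 to 0.48 at Dnajc5g. For the 4 genes with 3 alternating units, the median was -0.02. Dnajb1, described above as heat-inducible, was among the 41 without a match. Promoters of Hsf1, Hspa8, Hsp90aa1, Hsp90ab1, Dnajc2 and 10 other members were not in the table. Over all 71 members 32 were higher and 39 lower, so the members left out of this comparison were mostly higher. The medians with and without a match therefore do not describe the whole set.

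Genes that HSF1 or heat is known to induce outside these families were read as well. Of 10 such genes, 3 were higher and 7 lower, with a median of -0.12. Bag3, Serpinh1 and Chordc1 differed by -0.21, -0.27 and -0.38. Hmox1, the heme oxygenase that is also a main target of the oxidative stress factor NRF2, stood apart. It was at 0.44, 0.68 and 0.43 with vehicle and at 1.24, 2.00 and 1.54 with DMBA. The difference was 1.08 (SE 0.27), a 2.11-fold higher mean, with an unadjusted p of 0.0074 and an adjusted p of 0.77 by limma. A second, dimmer Hmox1 probe had vehicle values from -1.93 to 1.67 and differed by -0.28 (SE 0.88).

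Cofactors of the chaperones were read from lists of known partners, which overlap: Ahsa1, Bag3, Chordc1, Fkbp4 and Stip1 stand on more than 1. Of 16 HSP70 cofactors, 10 were higher and 6 lower (median 0.11), with none (0) at an unadjusted p under 0.05. Bag5, a nucleotide exchange factor, had the smallest p, with differences of -0.60 (SE 0.35) and, on a second probe, -0.51 (SE 0.25), followed by Hspbp1. Of 19 HSP90 cofactors, 9 were higher and 10 lower (median -0.03), and 2 of the higher were below 0.05 unadjusted, where 2.55% of all genes were. Cdc37l1, a relative of the kinase adaptor Cdc37, was at -0.19, -0.11 and -0.11 with vehicle and at 0.68, 0.89 and 0.58 with DMBA. This was a difference of 0.85 (SE 0.21; unadjusted p 0.0068, adjusted p 0.77 by limma). Ahsa2, an HSP90 activator homologue, differed by 3.46 (SE 1.35), but its vehicle values were spread over -1.83, -3.98 and -7.37, and only 2 of these 3 arrays were above background.

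The 13 subunits of the cytosolic chaperonin and prefoldin, which fold actin and tubulin, divided into 7 higher and 6 lower (median 0.02). For 11 of these 13 the 95% interval lay inside a 2-fold change. Of 8 genes for the disaggregase and mitochondrial proteases, 4 were higher. Clpb, the mitochondrial disaggregase, had 2 probes that agreed, with differences of 0.70 and 0.72 (SE 0.25 for both; unadjusted p 0.030 and 0.027). On the brighter, the values were 3.05, 3.56 and 3.03 with vehicle and 3.89, 3.80 and 4.06 with DMBA. The 3 J-domain proteins with other names, Sec63, Gak and Hscb, were lower by -0.66, -0.42 and -0.16 (SE 0.33, 0.30 and 0.46), none at an unadjusted p under 0.05.

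How firmly an absence of difference can be stated depends on the probe. The 95% interval of the difference lay inside a 2-fold change for 48 of the 98 chaperone probes (49.0%), against 37.0% of all probes. When all probes were divided by brightness into 3 equal parts, 59 chaperone probes were in the brightest, and 66.1% of these had such an interval, against 60.4% of all probes there. In the middle part it was 20% of 30 members against 33.1%. In the dimmest part it was 33.3% of 9 members against 17.6%. The median residual SD of the members was 0.23 in the brightest part and 1.00 in the dimmest. Over the 6 arrays, the values of 50 chaperone probes spanned less than 1 unit and those of 18 spanned more than 2. Against the 5th and 95th percentile of all probes of like level, 13 chaperone probes (13.3%) lay below and 2 (2.04%) above. By construction 5% of all probes lie on each side. Among the brightest probes this band is not centred on 0: it runs from -0.10 to 0.29, with a median of 0.09. A bright probe such as that of Hsp90ab1, at -0.10, therefore counts as below with a small difference. The count was made under the main scaling only. The 13 were those of Dnajb1, Dnajc2, Dnajc9, Dnajc17, Dnajc21, Dnajc24 (both), Hsp90ab1, Hsp90b1, Hspa4 (2 of 3), Hspa4l and Hspa5.

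**Figure D4:**
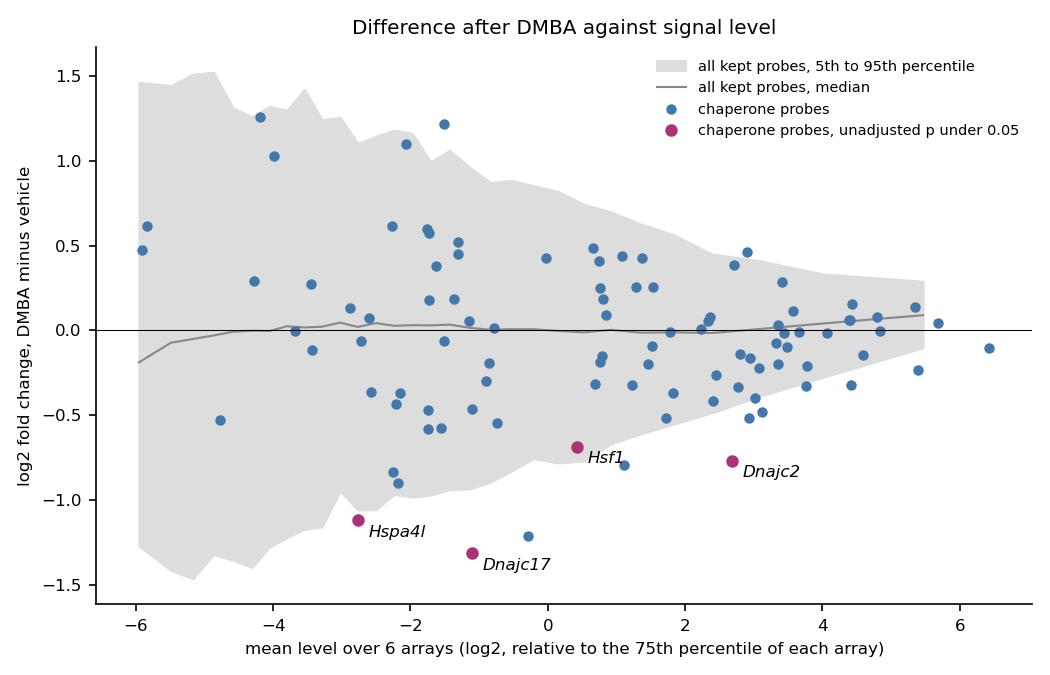
Difference after DMBA (y axis, log2) against mean level over the 6 arrays (x axis, log2 relative to the 75th percentile) for the 98 chaperone probes, over the 5th to 95th percentile of all probes of like level (grey). The band narrows from dim to bright probes, and for the brightest it runs from -0.10 to 0.29. Taken in 30 steps of level, 13 chaperone probes of 11 genes lie below it, among them Dnajc17, Dnajc2 and both probes of Dnajc24. Above it lie 2 probes (Dnajc11 and Hspb8).

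Where 19 genes had more than 1 kept probe, 7 had all probes lower (Dnaja2, Dnajc8, Dnajc21, Dnajc24, Hspa4, Hspa13 and Hsph1), 5 had all higher (Dnajb2, Dnajc5, Dnajc11, Dnajc14 and Hspe1) and 7 had probes of opposite sign. In the last 7 no probe had an unadjusted p under 0.05. Probes of the same gene share the sample and are no replicates.

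Among the arrays, DMBA 1 stood out in both directions. It was the lowest of the 6 arrays for 28 chaperone probes and the highest for 26. The median deviation of the chaperone probes on that array was -0.11, where that of all probes was 0.20. Its 75th percentile intensity, 1355, was the lowest of the 6, which ran up to 2274 at vehicle 1. The part of that array's signal in the results was not tested beyond leaving it out, as given above.

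Stress genes of tissue handling were read beside the chaperones, since both can answer to dissociation and sorting. All 12 immediate early genes on that list were above background on all arrays. Their summed linear level was 37.04 to 40.63 times the 75th percentile on the vehicle arrays and 41.66 to 43.37 on the DMBA arrays, so the sums did not overlap. That sum is made up mostly of the bright Egr1 and Jund probes, which differed by -0.21 and 0.38. Of the 12, 9 were higher and 3 lower (median 0.45), and Ier2 and Btg2 differed by 1.23 and 1.16. Their part in the chaperone values was not tested. Genes of other cell types were summed in the same way, without comparing lists. The sum over 6 leukocyte genes was 1.42 to 2.41 with vehicle and 1.51 to 2.24 with DMBA, that over 3 of 5 fibroblast genes 0.868 to 2.99 and 2.49 to 3.03, and that over 7 melanocyte genes 2.54 to 4.39 and 4.09 to 6.71. All 3 fibroblast genes were higher after DMBA, by 1.51 at Dcn (SE 0.25; unadjusted p 0.00095, adjusted p 0.50 by limma) and 1.29 at Col1a1 (SE 0.58), both without overlap. Of the 7 melanocyte genes 3 were higher and 4 lower, with a median of -0.05. Mlana and Tyrp1 were higher by 2.72 (SE 0.96) and 3.35 (SE 1.34), with overlapping groups. Tyrp1 was above background on only 1 of the 3 vehicle arrays. For suprabasal epidermis (4 of 5 genes) the sum was 15.5 to 58.4 and 30.3 to 54.4. Of endothelial and muscle genes 5 of 6 were measured, with sums of 0.639 to 0.657 and 0.740 to 2.11, which did not overlap either. The highest of these sums is made up mostly of Eng on DMBA 3, at 0.80, where DMBA 1 and DMBA 2 were at -0.83 and -1.43. Of the 5 genes 4 were higher and 1 lower: Pecam1, an endothelial gene, differed by -0.51 (SE 0.35). Myh1 was above background on only 1 of the 3 vehicle arrays. The 3 erythroid genes of 4 summed to 0.397 to 4.21 and 0.756 to 5.18. The part of these cells in the chaperone values was not tested either.

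**Figure D5:**
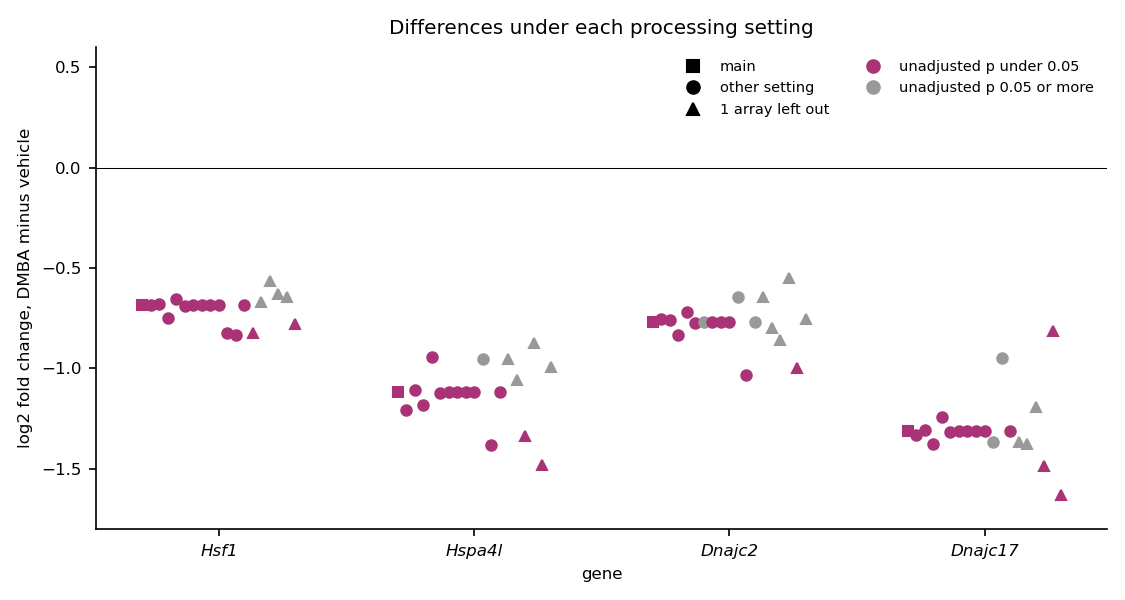
Difference after DMBA (y axis, log2) for the 4 genes with an unadjusted p under 0.05, under the main processing (square), 12 other settings (circles) and with each array left out (triangles); coloured marks have an unadjusted p under 0.05. All marks lie below 0, and most of the grey ones are fits without 1 array. Settings that change only the filter, the probe choice, the moderation or the replicate block share the main difference.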

How the data were processed

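RNA of 6 sorted samples (3 vehicle, 3 DMBA, at day 3) was hybridised to 1-colour Agilent arrays. The deposited scanner files hold spot intensity after the scanner software's background correction, per the file headers, read with Agilent Feature Extraction 10.7.1.1 per the submitters' processing notes. Log2 processed intensities minus the log2 75th percentile of each array (over spots that are not controls) were computed in R 4.3.3. Control spots (3671) and values from spots with an outlier flag (45 probe values) were removed, and replicate spots were averaged per probe. The filter kept 44955 of 55681 probes, those that Feature Extraction marks as well above background on at least 3 of 6 arrays. Differences, standard errors, 95% intervals and p-values are from limma 3.58.1 (lmFit and eBayes, two-sided), adjusted by Benjamini-Hochberg over all 44955 probes. The fit was tested on simulated data. No spot was saturated. The number of arrays limits the precision.

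Probes were named through their RefSeq accession in the GRCm38.p6 annotation (28331 of 55681 probes). Where a gene had several probes, the one with the highest mean represented it in counts by gene. The members and gene lists were chosen with earlier results of these data known. Named genes were a preset list of well-known chaperones, those with an unadjusted p under 0.05, and up to 4 of smallest p per family or partner list. A few listed partner genes are not reported here by name. Other genes are named to complete a family, a list or a count and were chosen after their values were seen. The replicate numbers do not pair the samples: the mice were different, and deviations of same-numbered arrays correlated at 0.027, -0.009 and 0.04 across probes. Alternatives covered scaling, background correction, filter, probe choice, moderation, slide, array quality, replicate block and each array left out.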

Additional observations from a re-analysis of the deposited data

How the results depend on the processing

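The count of members past an adjusted p of 0.05 was 0 under all 18 other settings, with limma in each. Counts of lower members at an unadjusted p under 0.05 were 4 in the main analysis and 7 under quantile normalization, median scaling and normexp on the median signal with quantile normalization (the last chosen after seeing the data), while 2.69%, 2.89% and 2.67% of all probes were lower against 2.22% in the main analysis; normexp on the mean signal was not run, because the files used here carry a median signal. With the slide as a block, which leaves vehicle 1 out of the comparison, 2 were lower and 2 higher. In that fit 2.05% of all probes were lower and 2.69% higher. Adjusting for each array's percentage of probes above background, as a covariate, 2 were higher (Dnajc12 and Dnajc18, with 4.36% of all probes higher). There 5 were lower (Dnaja4, Dnajc2, Dnajc21, Hsf1 and Hspa4l, with 2.53% of all probes lower), without Dnajc17. Leaving out each array gave 0 to 5 lower, 0 to 2 higher and a median from -0.0978 to -0.0252. In those fits 2.05% to 4.03% of all probes were lower and 2.44% to 3.01% higher. The median difference of the members was -0.0805 under median scaling and -0.0895 with that covariate, which moved the median of all probes to 0.16. With the replicate block, 3 members were lower (Hsf1, Hspa4l and Dnajc17), where 2.32% of all probes were, and Dnajc2 had an unadjusted p of 0.0873. Of 50 named probes, 29 kept their sign under all settings and 9 turned under another scaling. The settings of filter, probe choice, moderation and replicate block cannot turn a sign. Dim chaperone probes, with a median residual SD of 1.00 in the dimmest part (0.71 for all probes there), could show only large differences.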
